A study of Mus musculus with 6 samples.

Results

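A set of 10 genes that drive cells from G1 into S phase was followed in muscle stem cells (MuSCs) of healthy and dystrophic mice. They are the D-type cyclins Ccnd1, Ccnd2 and Ccnd3, the kinases Cdk4, Cdk6 and Cdk2, the E-type cyclins Ccne1 and Ccne2, the A-type cyclin Ccna2, and the transcription factor gene E2f1. The 10 genes were taken by symbol from the deposited table of 22706 genes, each matched a single entry, and all 10 passed the filter on low values (a mean of at least 5 over the 6 libraries), as did 15915 genes in all.

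The study compared RNA of freshly sorted MuSCs, the stem cells that rebuild skeletal muscle, from 3 groups with 2 libraries each. Control mice were wild type. In mdx mice the dystrophin gene Dmd is mutated, which models Duchenne muscular dystrophy. The Sirt6mKO/mdx mice carry the mdx mutation too and in addition floxed Sirt6 alleles with Pax7-ICNCre, a Cre recombinase driven by the Pax7 promoter that acts in the whole muscle lineage and not in MuSCs alone. The labels give the strain of all groups as C57BL/6. The study states that the mdx allele came from a C57BL/10 strain, that its mice were kept on C57BL/6 and that controls were littermates. The labels give neither age nor sex, while the study's legends speak of adult males. Per the study's methods, cells that carry Sca1, CD45 or CD31, marks of fibro-adipogenic, blood and endothelial cells, were depleted, and MuSCs were then sorted by Integrin-a7 and CD34 or by a fluorescent reporter. The study calls the libraries of a group biological replicates, and the labels do not say whether each came from a single mouse or a pool. P-values thus rest on the spread between libraries, of the gene itself and of genes of similar level.

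Cyclins have no kinase activity of their own and switch on the cyclin-dependent kinases (CDKs) that they bind. D-type cyclins respond to growth signals and, with CDK4 or CDK6, begin the phosphorylation of the retinoblastoma protein, which holds E2F factors in check. Cyclin E with CDK2 completes that step, E2F factors then drive genes of DNA synthesis, and cyclin A2 with CDK2 acts through S phase. Adult MuSCs are mostly quiescent and enter this sequence when muscle is damaged.

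The libraries held between 4397707 and 9744264 approximate reads. Replicates of a group correlated across genes, which are not independent replicates, on the log2 scale with a Pearson's r that ranged from 0.935 to 0.952. The deleted gene, Sirt6, read 41 and 32 for control, 33 and 40 for mdx and 37 and 30 for the third group. The floxed alleles lose some exons only, so a whole-gene value is a weak check of the deletion. The 3 groups overlapped in this value, so the last group is given by its label, as the Sirt6mKO/mdx-labelled libraries. Xist, an RNA of the inactive X chromosome in females, read 16772 and 12950 in control and between 7 and 34 in the other 4 libraries, and the Y-linked gene Ddx3y read 3 and 8 in control and between 1024 and 1767 elsewhere. In the control libraries these values go against the male sex that the study gives. In each comparison with control, genotype and this difference cannot be told apart. The stem cell marker Pax7 read between 2167 and 3236 in all 6 libraries.

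Values are the authors' normalized read counts (reads per gene divided by a size factor per library), given as replicate 1 and replicate 2. A gene was called when the adjusted p of limma (moderated test across all genes, two-sided, Benjamini-Hochberg) was at most 0.05 and the log2 fold change, on the log2(value + 1) scale, was at least 1 in size. Errors of log2 fold changes are standard errors of that fit, intervals are 95% intervals, and n = 2 libraries per group throughout. In bulk samples, more RNA per cell and more cells that express a gene cannot be told apart.

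Of the 10 genes, Cdk6, Ccne2 and Ccna2 were higher in mdx than in control, Ccnd1 was lower in the Sirt6mKO/mdx-labelled libraries than in mdx, and against control these libraries had higher Cdk6 and lower Ccnd1. Ccnd2, Ccnd3, Cdk4, Ccne1, Cdk2 and E2f1 were called in none of the 3 comparisons by limma. The plot of all values shows that the spread between replicates differed widely between these genes.

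**Figure D1:**
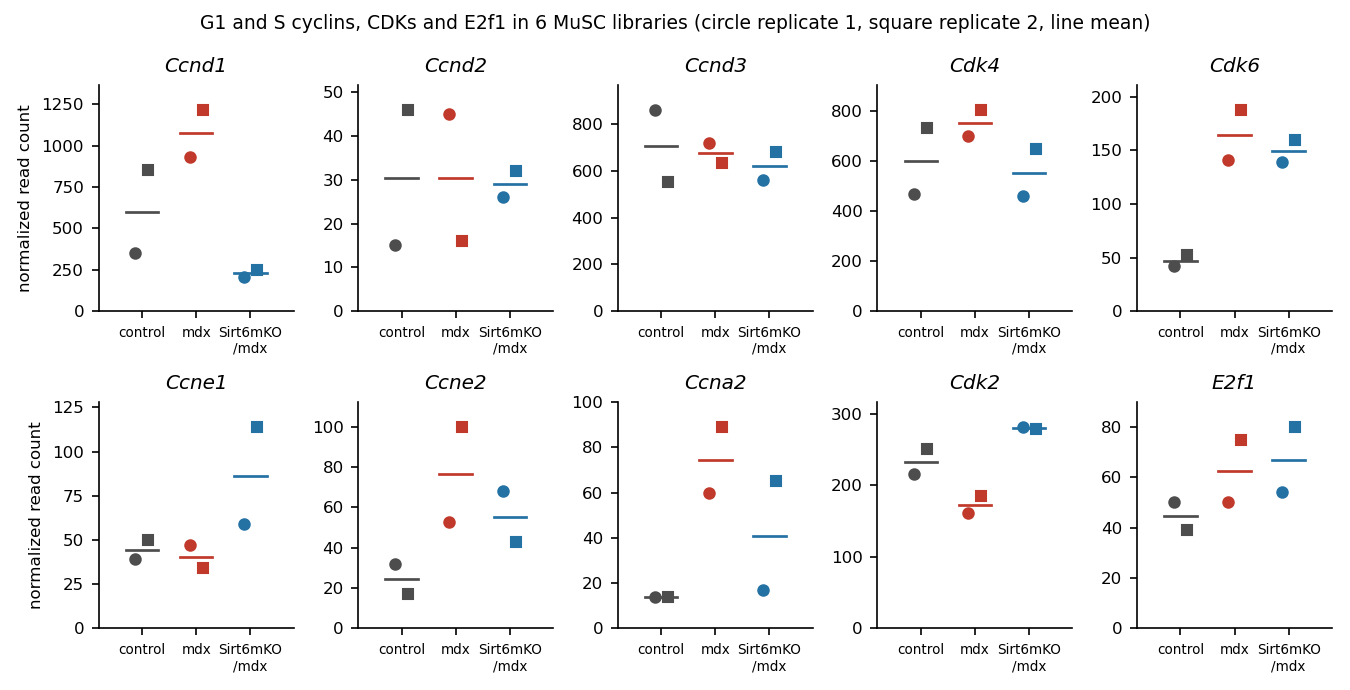
Normalized read counts (vertical axis, from 0) of the 10 genes in each of 6 libraries, grouped by genotype on the horizontal axis. Circles are replicate 1, squares replicate 2 and lines the mean of 2 libraries. Ccnd1 sits at 207 and 251 in the Sirt6mKO/mdx-labelled libraries, below the other 4, and Cdk6 sits at 42 and 52 in control, below the other 4.

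Cdk6, a partner kinase of the D cyclins, lies on the plus strand of chromosome 5 (GRCm38, ENSMUSG00000040274, chr5:3343893-3523218). Its normalized read counts were 42 and 52 for control, 141 and 188 for mdx and 139 and 160 for the Sirt6mKO/mdx-labelled libraries. The control libraries lay below the other 4, which overlapped each other. In mdx Cdk6 rose by 1.78 ± 0.34 on the log2 scale (interval 1.06 to 2.50, a 3.43-fold difference, adjusted p = 0.00237).

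Between the Sirt6mKO/mdx-labelled libraries and mdx the Cdk6 log2 fold change was -0.13 ± 0.34 (interval -0.84 to 0.59, adjusted p = 0.859). Against control Cdk6 rose by 1.65 ± 0.34 in the Sirt6mKO/mdx-labelled libraries (interval 0.93 to 2.37, a 3.14-fold difference, adjusted p = 0.00722). That call was lost without Sirt6mKO/mdx replicate 1 (1.75, adjusted p = 0.0701) and without replicate 2 (1.55, adjusted p = 0.136).

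To show the DNA next to the gene whose level was higher in both dystrophic groups, and next to the gene with a match to an E2F motif, the 250 bases before the RefSeq start (GRCm38.p6) are given for Cdk6 (chr5:3343643-3343892, plus strand) and Cdk2 (chr10:128705052-128705301, minus strand), each 5′ to 3′ on the strand of the gene. Capitals mark a match to the E2F motif.
Cdk6: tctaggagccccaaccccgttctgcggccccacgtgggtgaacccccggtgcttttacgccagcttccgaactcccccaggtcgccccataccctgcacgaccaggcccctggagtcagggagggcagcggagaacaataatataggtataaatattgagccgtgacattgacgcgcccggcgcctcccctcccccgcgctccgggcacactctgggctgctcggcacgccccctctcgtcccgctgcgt
Cdk2: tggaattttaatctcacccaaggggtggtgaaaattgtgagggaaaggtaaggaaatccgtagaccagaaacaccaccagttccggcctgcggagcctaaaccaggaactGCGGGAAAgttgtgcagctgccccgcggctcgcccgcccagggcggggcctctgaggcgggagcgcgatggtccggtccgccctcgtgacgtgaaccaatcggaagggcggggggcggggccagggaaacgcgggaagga

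The RefSeq promoter table held windows of 300 bases (250 before and 50 after the start) for 6 of the 10 genes: Ccnd3, Cdk4, Cdk6, Ccne1, Cdk2 and E2f1. It held none for Ccnd1, Ccnd2, Ccne2 and Ccna2. The windows were searched on both strands for the E2F letters TTTCGCGC, TTTCCCGC, TTTGCCGC and TTTGGCGC, the cAMP response element TGACGTCA, the AP-1 letters TGANTCA, the CHR letters TTTGAA of genes of late cell cycle, and the GC box GGGCGG. The E2F match was the single one in the windows of these 6 genes. It lay 140 bases before the Cdk2 start, where the gene's strand reads GCGGGAAA, the reverse complement of TTTCCCGC. Of 32851 promoter windows in the table, 2.26% held an E2F match.

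No window of the 6 genes held the cAMP response element (in 1.79% of all windows), the AP-1 letters (7.81%) or the CHR letters (17.9%). The GC box stood 6 times in the Cdk2 window, 5 times in that of E2f1, 4 times in that of Ccne1, 3 times in that of Cdk4 and 2 times in the Ccnd3 window at its most upstream start, and was absent from the Cdk6 window, although 66.7% of the Cdk6 bases were G or C. Over all windows 35.7% held a GC box. The E2f1 and Ccne1 windows are placed on RefSeq starts 466 and 44 bases downstream of the start of the gene in the deposited table. The whole E2f1 window thus lay within the gene, and the bases before the deposited E2f1 start were not searched. These matches describe letters in these windows only.

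Among the D cyclins, Ccnd1 varied most between groups. Ccnd1 (ENSMUSG00000070348, chr7:144929931-144939869, minus strand) encodes cyclin D1, which couples growth signals to the cell cycle. Its normalized read counts were 352 and 851 for control, 930 and 1217 for mdx and 207 and 251 for the Sirt6mKO/mdx-labelled libraries. The 3 groups did not overlap, but the control libraries differed from each other by 2.42-fold.

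From mdx to the Sirt6mKO/mdx-labelled libraries, Ccnd1 fell by 2.22 ± 0.34 on the log2 scale, that is 4.65-fold (adjusted p = 0.000937). The interval ran from -2.94 to -1.49, and the call was lost without Sirt6mKO/mdx replicate 1 (-2.08, adjusted p = 0.067). Against control Ccnd1 was lower in these libraries as well, with a log2 fold change of -1.26 ± 0.34 (interval -1.98 to -0.54, 2.395-fold lower, adjusted p = 0.0315). Without control replicate 2, the higher of the control libraries, that value was -0.62 (adjusted p = 0.269), and the call was kept in 1 of 6 fits that each left out a library, that without control replicate 1.

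In mdx against control the Ccnd1 log2 fold change of 0.96 ± 0.34 (interval 0.23 to 1.68) missed both the fold and the p threshold, with an adjusted p of 0.0673. Without control replicate 2 it was 1.59 (adjusted p = 0.00533) and without control replicate 1 it was 0.32, so this value depended on which control library was used. Of the exonic bases of Ccnd1, 23.4% are shared with Oraov1 on the opposite strand, and the use of strand by the counting is not stated. Oraov1 read between 40 and 89 in the 6 libraries. The authors left out reads on several genes, and how many reads this cost Ccnd1 was not tested.

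Ccnd3 (ENSMUSG00000034165, chr17:47505051-47599691, plus strand) encodes cyclin D3, which is also used in differentiating muscle cells. Ccnd3 read 863 and 551 for control, 719 and 636 for mdx and 560 and 680 for the Sirt6mKO/mdx-labelled libraries. All 3 groups overlapped. Its log2 fold changes were -0.03 ± 0.27 in mdx against control (adjusted p = 0.957), -0.13 ± 0.27 in the Sirt6mKO/mdx-labelled libraries against mdx (adjusted p = 0.804) and -0.16 ± 0.27 against control (adjusted p = 0.768).

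Ccnd2 (ENSMUSG00000000184, chr6:127125779-127151048, minus strand) encodes cyclin D2 and was the lowest D cyclin. Ccnd2 read 15 and 46 for control, 45 and 16 for mdx and 26 and 32 for the Sirt6mKO/mdx-labelled libraries. Replicates differed by 3.07-fold in control and 2.81-fold in mdx, and between 10 and 69 approximate reads stood behind each value. With intervals as wide as -1.40 to 1.46 (mdx against control), a change of 2-fold in either direction was not detectable for Ccnd2 at this depth and spread.

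Within the family, per kilobase of exon, Ccnd1 made up 42.8% and 72.8% of the D cyclin signal for control, 69.5% and 77.7% for mdx and 39.8% and 39.7% for the Sirt6mKO/mdx-labelled libraries. Ccnd3 made up 56.3% and 25.3%, 28.8% and 21.8%, and 57.7% in each of the last 2 libraries. These shares do not depend on how libraries were scaled. The Sirt6mKO/mdx-labelled libraries lay below both mdx libraries in the Ccnd1 share, whereas control replicate 1 lay near the former and control replicate 2 between the mdx libraries.

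**Figure D2:**
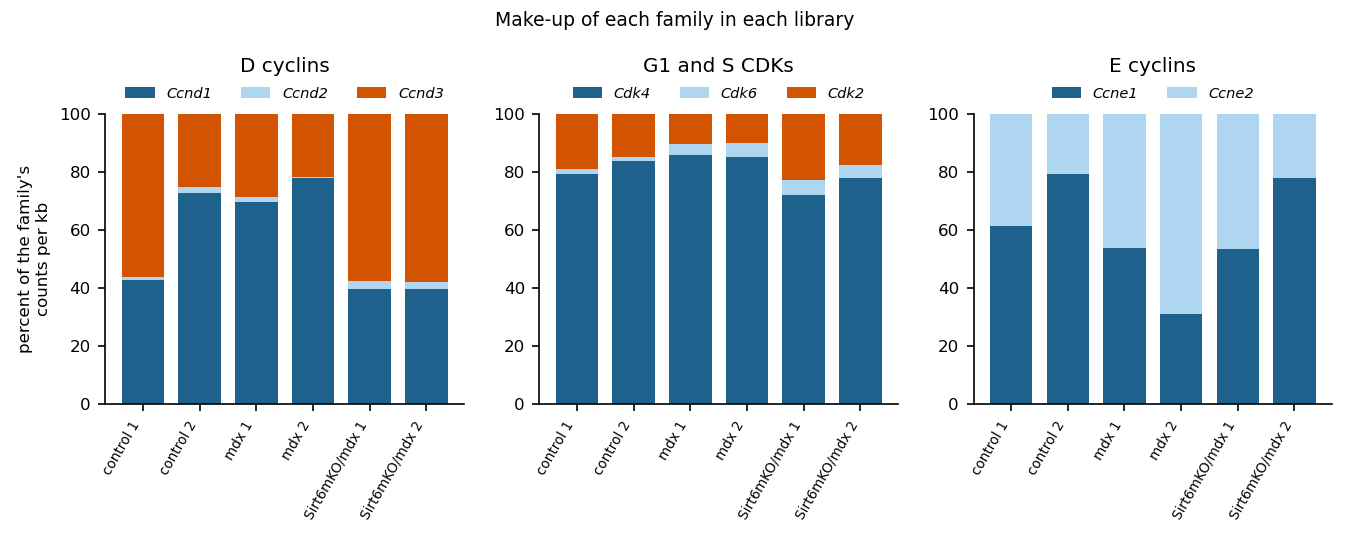
Percent of the summed counts per kilobase of exon (vertical axis, 0 to 100) that each gene contributes to its family, in each of 6 libraries (horizontal axis). The left panel shows the D cyclins, the middle panel Cdk4, Cdk6 and Cdk2, and the right panel the E cyclins. Ccnd1 holds 69.5% and 77.7% of the D cyclin signal in mdx and 39.8% and 39.7% in the Sirt6mKO/mdx-labelled libraries.

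Cdk4 (ENSMUSG00000006728, chr10:127063534-127067920, plus strand) is the main kinase partner of the D cyclins. Cdk4 read 468 and 731 for control, 701 and 806 for mdx and 461 and 648 for the Sirt6mKO/mdx-labelled libraries. Control overlapped both other groups, and the last group lay below mdx. The log2 fold changes were 0.36 ± 0.28 (adjusted p = 0.407) in mdx against control, -0.46 ± 0.28 (interval -1.05 to 0.13, adjusted p = 0.324) against mdx and -0.10 ± 0.28 (adjusted p = 0.873) against control. The value against mdx was -1.09 and passed the test of limma with total counts (adjusted p = 0.0258) and with voom weights (adjusted p = 0.0181). Both settings scale libraries by total counts, and with them the median of all genes moved to -0.58 and -0.60. Tspan31 on the opposite strand shares 19.7% of the exonic bases of Cdk4.

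Among the 3 kinases, Cdk4 took between 72.0% and 85.7% of the signal per kilobase in every library. Cdk6 took 1.65% and 1.38% for control, 4.0% and 4.61% for mdx and 5.04% and 4.47% for the Sirt6mKO/mdx-labelled libraries. So Cdk6 stayed the minor kinase in all libraries, with a larger share in all 4 dystrophic libraries than in either control library.

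Cdk2 (ENSMUSG00000025358, chr10:128697939-128705051, minus strand) works with cyclins E and A. Cdk2 read 216 and 251 for control, 161 and 185 for mdx and 282 and 279 for the Sirt6mKO/mdx-labelled libraries, and its 3 groups did not overlap. No difference passed the test. The log2 fold change was -0.43 ± 0.26 (interval -0.99 to 0.13, adjusted p = 0.290) in mdx against control and 0.70 ± 0.26 (interval 0.13 to 1.26, adjusted p = 0.114) in the Sirt6mKO/mdx-labelled libraries against mdx. Against control it was 0.27 ± 0.26 (adjusted p = 0.586). When libraries were scaled by total counts, the value against mdx became 0.073 (adjusted p = 0.895) and that against control -0.34. Voom weights, which share that scaling, gave 0.075 against mdx.

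The E cyclins differed from each other. Ccne2 (ENSMUSG00000028212, chr4:11191351-11204779, plus strand), which encodes cyclin E2, read 32 and 17 for control, 53 and 100 for mdx and 68 and 43 for the Sirt6mKO/mdx-labelled libraries. The control libraries lay below all others. Ccne2 rose by 1.60 ± 0.51 in mdx against control (interval 0.50 to 2.70, a 3.03-fold difference, adjusted p = 0.0452), close to the threshold, and the call was lost without control replicate 2 (1.16, adjusted p = 0.176) and without mdx replicate 2 (1.15, adjusted p = 0.313). It was kept in 1 of 6 such fits, that without control replicate 1 (adjusted p = 0.0491), and under 5 of 12 other settings of the fit.

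Against control, the Ccne2 value in the Sirt6mKO/mdx-labelled libraries was 1.18 ± 0.51 (interval 0.08 to 2.27, adjusted p = 0.175), and against mdx it was -0.42 ± 0.51 (adjusted p = 0.657). Ints8 on the opposite strand shares 17.4% of the exonic bases of Ccne2 and read between 309 and 426, above the Ccne2 value in every library. Reads on several genes were left out of the counting, and how many this cost Ccne2 was not tested.

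Ccne1 (ENSMUSG00000002068, chr7:38097984-38107534, minus strand), which encodes cyclin E1, read 39 and 50 for control, 47 and 34 for mdx and 59 and 114 for the Sirt6mKO/mdx-labelled libraries. The last group lay above both others. Its log2 fold change against mdx was 1.02 ± 0.47 (interval 0.03 to 2.01, a 2.03-fold difference, unadjusted p = 0.0445 from limma) and did not pass after adjustment (0.187). It ranged from 0.55 without Sirt6mKO/mdx replicate 2 to 1.49 without Sirt6mKO/mdx replicate 1. With total counts it was 0.40, and with voom weights, which share that scaling, 0.38. Against control it was 0.88 ± 0.47 (adjusted p = 0.268), and in mdx against control -0.14 ± 0.47 (adjusted p = 0.872). Per kilobase, Ccne2 took 38.5% and 20.6% of the E cyclin signal for control, 46.2% and 69.1% for mdx and 46.7% and 22.3% for the Sirt6mKO/mdx-labelled libraries, so that mdx replicate 2 was the only library with more Ccne2 than Ccne1.

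Ccna2 (ENSMUSG00000027715, chr3:36564866-36572150, minus strand) encodes cyclin A2, which is made in S and G2 phase and marks cycling cells. Ccna2 read 14 and 14 for control, 60 and 89 for mdx and 17 and 65 for the Sirt6mKO/mdx-labelled libraries. In the last group the libraries differed by 3.82-fold, with replicate 1 near control and replicate 2 within the mdx range. In mdx Ccna2 rose by 2.30 ± 0.62 (interval 0.98 to 3.63, a 4.94-fold difference, adjusted p = 0.0201).

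The control value of Ccna2 rested on about 9 and 18 reads. With mdx replicate 1 or 2 left out the mdx difference was 2.59 (adjusted p = 0.104) or 2.02 (adjusted p = 0.167), and the call was also lost without control replicate 1 (adjusted p = 0.0811) or 2 (0.060). The log2 fold change in the Sirt6mKO/mdx-labelled libraries was -1.10 ± 0.62 against mdx (interval -2.43 to 0.22, adjusted p = 0.286) and 1.20 ± 0.62 against control (interval -0.12 to 2.52, adjusted p = 0.257). Exosc9 on the opposite strand, which shares 12.5% of the exonic bases of Ccna2, read 144 and 120 for control, 293 and 241 for mdx and 178 and 223 for the third group. The mdx libraries of Exosc9 lay above those of both other groups. Reads on several genes were left out of the counting, and how many this cost Ccna2 was not tested.

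E2f1 (ENSMUSG00000027490, chr2:154559407-154569892, minus strand) encodes the factor that the retinoblastoma protein restrains. E2f1 read 50 and 39 for control, 50 and 75 for mdx and 54 and 80 for the Sirt6mKO/mdx-labelled libraries. The log2 fold changes were 0.46 ± 0.44 (adjusted p = 0.512) in mdx against control, 0.10 ± 0.44 (adjusted p = 0.918) against mdx and 0.56 ± 0.44 (interval -0.37 to 1.497, adjusted p = 0.470) against control. Scaling by total counts turned the last 2 values to -0.52 and -0.03. E2f1 and Ccne1 share no exonic bases with another annotated gene.

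**Figure D3:**
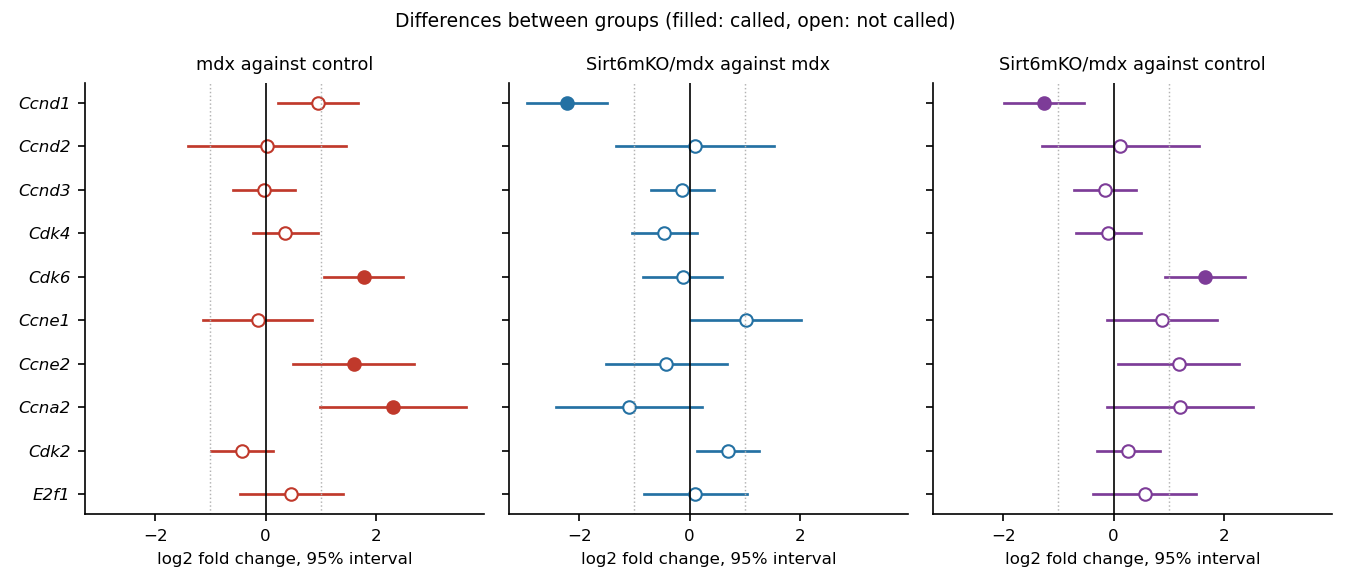
Log2 fold changes (horizontal axis, log2(value + 1) scale) of the 10 genes (vertical axis) in the 3 comparisons, with 95% intervals from limma as bars. Filled points were called and open points were not, and dotted lines mark a 2-fold difference. Filled points are Cdk6, Ccne2 and Ccna2 on the left, Ccnd1 in the middle, and Ccnd1 and Cdk6 on the right.

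In mdx against control 3 of the 10 genes were called higher and 0 lower, beside 6.89% of all tested genes called higher and 7.34% called lower. In the Sirt6mKO/mdx-labelled libraries against mdx 0 were called higher and 1 lower, beside 5.62% and 2.54%. Against control 1 was called higher and 1 lower, beside 5.19% and 2.68%. At an unadjusted p under 0.05 limma counted 4, 3 and 3 of the 10 genes in the 3 comparisons, beside 31%, 25.2% and 24.1% of all tested genes. All 3 comparisons draw on the same 6 libraries, so the mdx libraries enter the first and the second, and the control libraries the first and the third.

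The groups did not overlap for 5 of the 10 genes in mdx against control, where this held for 57.0% of all tested genes. The corresponding counts were 4 of 10 beside 56.0% in the Sirt6mKO/mdx-labelled libraries against mdx and 7 of 10 beside 51.6% against control. The median log2 fold change of the 10 genes was 0.41, -0.13 and 0.42 in these comparisons, beside 0.00, 0.02 and 0.01 over all tested genes.

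When libraries were scaled by their total counts, the median of all genes moved to -0.58 in both comparisons of the Sirt6mKO/mdx-labelled libraries, and the calls over all genes turned from 895 higher and 405 lower to 479 and 2932 against mdx and from 826 and 427 to 455 and 2692 against control. Against that shift Ccnd1 stood at -2.84 against mdx (adjusted p = 0.00021) and at -1.86 against control (adjusted p = 0.00324). Cdk6 against control stood at 1.06 and was no longer called (adjusted p = 0.0585). The fit with voom weights also scaled libraries by total counts, with a median of all genes of -0.60 in both comparisons.

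**Figure D4:**
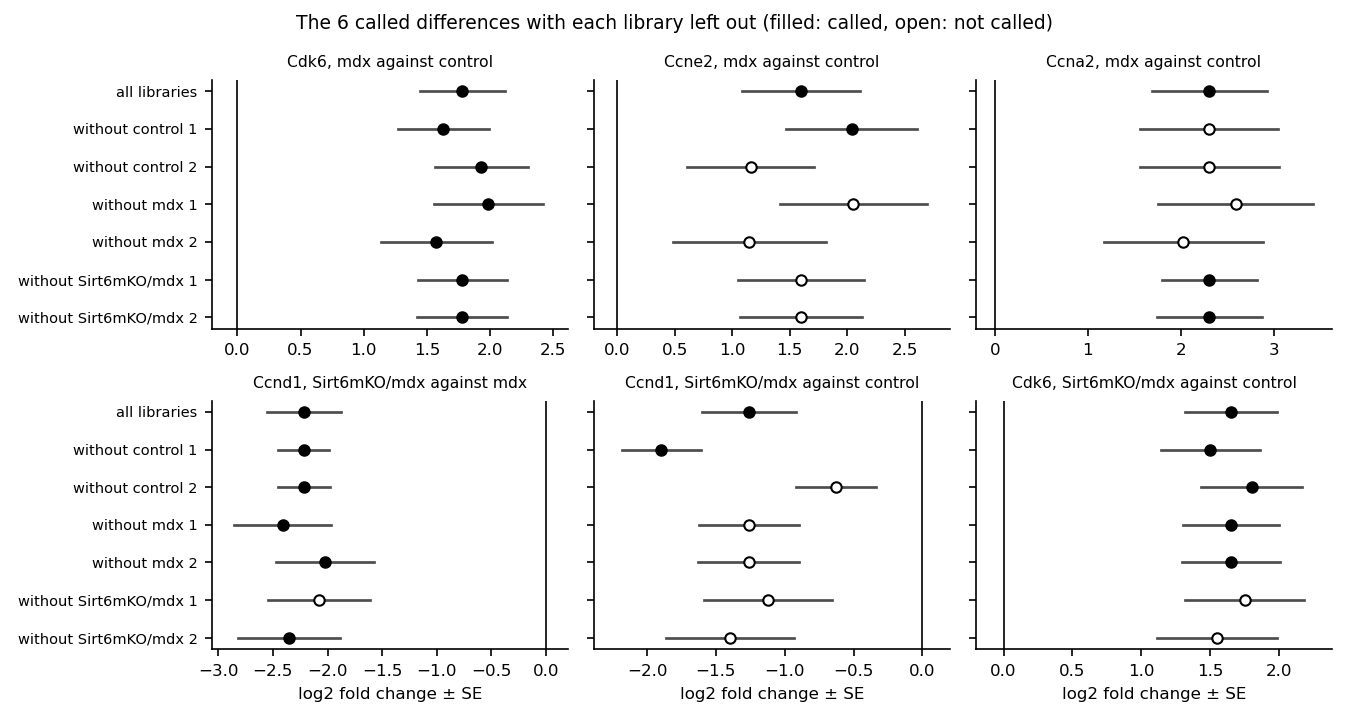
The 6 called differences refitted with each library left out in turn. The horizontal axis gives the log2 fold change with its standard error, the vertical axis the library left out, filled points were called and open points were not. Cdk6 in mdx against control was called in all 6 refits, between 1.57 and 1.99, whereas Ccne2 was called in 1 of 6 and Ccnd1 against control in 1 of 6.

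Levels can be compared between genes only per kilobase of exon. In control the order of the group means ran from Cdk4 (185 counts per kilobase) over Ccnd1 (128), Ccnd3 (80.6), Cdk2 (37.5), Ccne1 (16.7), E2f1 (14.1), Ccne2 (7.01), Ccna2 (3.43) and Cdk6 (3.36) to Ccnd2 (3.24). The libraries of Cdk4 and Ccnd1, of Ccnd1 and Ccnd3, of Ccne1 and E2f1, and of the last 3 genes overlapped. In mdx Cdk4 (232) and Ccnd1 (228) led and overlapped, Ccnd3 (77.2) stood apart, and Cdk2 (27.8), Ccne2 (21.9), E2f1 (19.8), Ccna2 (18.2), Ccne1 (15.2) and Cdk6 (11.8) followed with each overlapping its neighbour.

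In the Sirt6mKO/mdx-labelled libraries, Cdk4 (171) led without overlap, followed by Ccnd3 (70.7), and Ccnd1 (48.6) came next, overlapping Cdk2 (45.1). Ccne1 (32.5), E2f1 (21.2) and Ccne2 (15.9) came after it without overlap with Cdk2. E2f1 overlapped both Ccne1 and Ccne2, and Ccne2 did not overlap Cdk6. Cdk6 (10.7) and Ccna2 (10.04) overlapped, and Ccnd2 (3.08) was last, as in the other groups. The 10 genes summed to 2091 and 2602 normalized read counts for control, 2907 and 3346 for mdx and 1873 and 2352 in the third group.

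For each called gene, the 3 genes with the most similar profile over the 6 libraries were taken from 9665 genes with a mean of at least 50, by Pearson's r on the log2 scale. The libraries share their scaling and fall into 3 groups, so these values are descriptions. Ccnd1 was most like Trip11 (r = 0.999), Snx19 (0.998) and Lrpprc (0.998). Cdk6 was most like Rps6ka4 (0.995), Wipi1 (0.992) and Lrch1 (0.989). Ccne2 was most like Cspp1 (0.985), Habp4 (0.981) and Agpat2 (0.975), and Ccna2 was most like Galk2 (0.997), Zdhhc20 (0.990) and Nsg1 (0.988). Lrpprc, for example, read 314 and 487 for control, 493 and 577 for mdx and 231 and 244 for the third group, and thus shared with Ccnd1 the spread between the control libraries.

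Of 11 CDK inhibitor, p53 and pocket protein genes, 3 were called higher and 2 lower in mdx than in control. Cdkn1c, which encodes the inhibitor p57, read 57 and 180 for control, 1218 and 1072 for mdx and 317 and 674 for the Sirt6mKO/mdx-labelled libraries, and rose by 3.48 ± 0.43 in mdx (adjusted p = 7.6e-05). Rbl1, which encodes the pocket protein p107, read 17 and 22, 88 and 171, and 29 and 30, and rose by 2.60 ± 0.50 in mdx (adjusted p = 0.00248). Cdkn2a, which encodes p16 and p19ARF, read 2 and 0, 70 and 13, and 26 and 9, and was called higher in mdx from counts near 0 in control. The 2 lower genes were Cdkn1a, which encodes p21, and the p53 gene Trp53. Cdkn1a read 952 and 531 for control and 206 and 178 for mdx (-1.89 ± 0.29, adjusted p = 0.00042). Trp53 fell by 1.22 ± 0.28 (adjusted p = 0.00866).

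In the Sirt6mKO/mdx-labelled libraries against mdx, 3 of these 11 genes were called higher and 1 lower. Rbl1 fell by 2.02 ± 0.50 (adjusted p = 0.021), and Cdkn2d, an inhibitor of CDK4 and CDK6, rose by 1.55 ± 0.41 (adjusted p = 0.0313) with 40 and 40 in mdx and 110 and 128 in the third group. Cdkn1a rose by 1.17 ± 0.29 (adjusted p = 0.0208) to 449 and 413, below both control libraries. Against control 2 were higher and 1 lower. These were Cdkn1c (2.18 ± 0.43), Cdkn2d (1.51 ± 0.41) and the p53 gene Trp53 (-1.24 ± 0.28), with adjusted p of 0.00606, 0.0332 and 0.0141.

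Of 16 genes for activation and turnover of these cyclin-CDK complexes, 4 were called higher and 2 lower in mdx. Myc, a growth factor response gene, read 2072 and 1950 for control, 314 and 246 for mdx and 1288 and 1385 for the third group, with a log2 fold change of -2.85 ± 0.24 in mdx (adjusted p = 2.4e-06) and 2.26 ± 0.24 against mdx (adjusted p = 4.5e-05). Hspa8, a chaperone gene, was lower (-2.01 ± 0.40, adjusted p = 0.00312) and Mnat1, which encodes a subunit of the CDK-activating kinase, higher in mdx (1.25 ± 0.29, adjusted p = 0.00926).

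In the Sirt6mKO/mdx-labelled libraries against mdx, 1 of the 16 genes was called higher (Myc) and 1 lower. The latter was Skp2, which encodes the part of a ubiquitin ligase that recognises the inhibitor p27, with 240 and 258 in mdx and 88 and 110 in the third group (-1.33 ± 0.30, adjusted p = 0.0121). Against control 1 was higher, the ubiquitin ligase subunit Skp1a (1.09 ± 0.26, adjusted p = 0.0188), and 0 were lower. Of 9 other E2F and DP genes, E2f8 was called higher in mdx (0 and 1 in control, 9 and 22 in mdx) and E2f6 lower (-1.06 ± 0.29, adjusted p = 0.021), and none was called in the other 2 comparisons.

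Of 32 replication genes, 5 were called higher and 0 lower in mdx, with a median log2 fold change of 0.79 and 26 of 32 positive. Rfc3, a subunit of the clamp loader, rose by 2.27 ± 0.55 (adjusted p = 0.0107), and the helicase subunits Mcm2 and Mcm5 by 1.90 ± 0.42 (adjusted p = 0.00622) and 1.56 ± 0.38 (adjusted p = 0.012). In the Sirt6mKO/mdx-labelled libraries against mdx 0 were called higher and 3 lower, with a median of -0.69 and 29 of 32 negative. Mcm5 fell by 1.94 ± 0.38 (adjusted p = 0.00595), Mcm3 by 1.41 ± 0.42 (adjusted p = 0.0475) and Mcm6 by 1.24 ± 0.30 (adjusted p = 0.0181). Against control 1 was called, Orc6 of the origin recognition complex, which was higher (1.49 ± 0.37, adjusted p = 0.02), and the median was 0.01.

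Of 12 tested G2 and mitosis genes, 2 were called higher and 0 lower in mdx, namely the spindle checkpoint kinase gene Bub1 (3 and 1 in control, 59 and 44 in mdx, 14 and 48 in the third group) and the mitotic kinase gene Cdk1 (1.72 ± 0.51, adjusted p = 0.03). Against mdx 0 were called in the Sirt6mKO/mdx-labelled libraries, and against control 1 was, Bub1, which was higher. Of 26 other cyclin and CDK genes, 2 were called higher and 3 lower in mdx, 2 higher and 0 lower in the second comparison, and 2 higher and 1 lower in the third. Ccnl1, a splicing-linked cyclin gene, was lower in mdx (-2.04 ± 0.26, adjusted p = 0.0001) and higher again against mdx (1.81 ± 0.26, adjusted p = 0.00057), and Ccnc, which encodes the Mediator cyclin, was higher in mdx (1.72 ± 0.28, adjusted p = 0.00077) and in the third group against control (1.80 ± 0.28, adjusted p = 0.00098). Further called genes were Cables1 (-1.32), Ccng1 (1.27) and Cdk9 (-1.18) in mdx, and Ccng2 (1.34 against mdx), Cdk11b (1.11 against control) and Ccnt1 (-1.01 against control) in the third group.

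**Figure D5:**
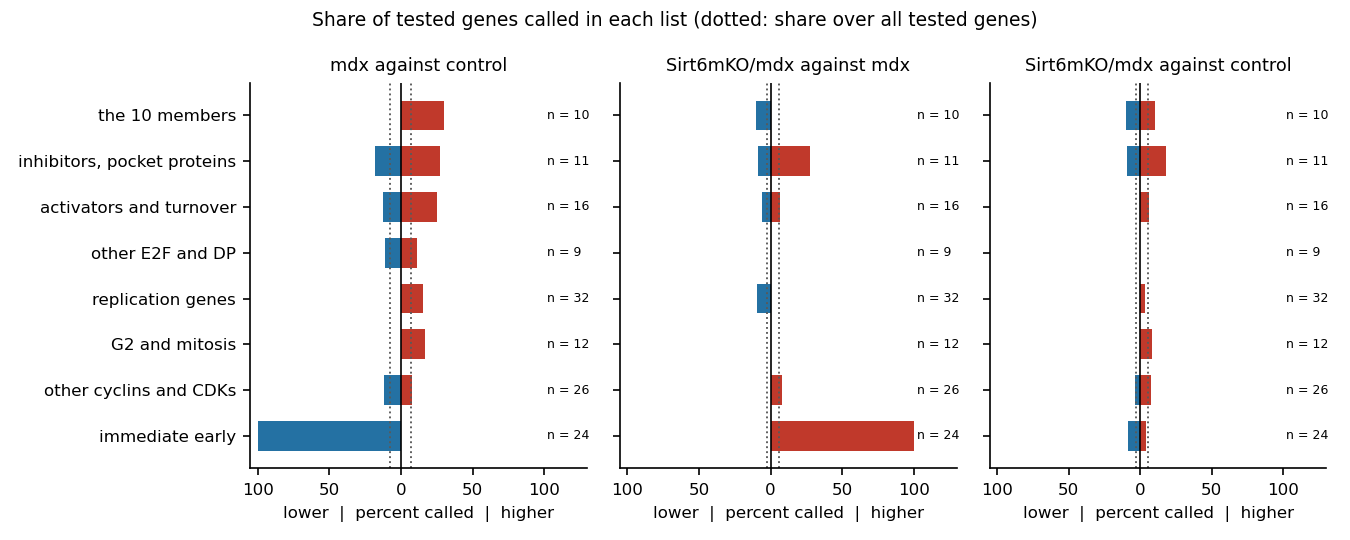
Percent of tested genes called higher (to the right of 0) and lower (to the left) in 8 gene lists (vertical axis) for the 3 comparisons. Dotted lines give the share called over all tested genes, and n is the number of genes tested in each list. All 24 immediate early genes were lower in mdx than in control and higher in the Sirt6mKO/mdx-labelled libraries than in mdx, while 3 of the 10 G1 and S genes were higher in mdx and 1 was lower in the third group against mdx.

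Genes of other programmes moved in the same libraries. All 24 genes of a list of immediate early and dissociation response genes were lower in mdx than in control (median -2.73). They were higher in the Sirt6mKO/mdx-labelled libraries than in mdx (median 2.61). Their summed values were 161168 to 174968 in control, 24904 to 27782 in mdx and 125383 to 132917 in the third group. The list includes the heat-shock chaperone genes Hspa1b and Hspa1a. Of the control sums, Hspa1b made up 43503 and 48342 and Hspa1a 24741 and 25674. The largest differences in mdx were those of Atf3 (-5.42), Nr4a1 (-4.96) and Maff (-4.17), against mdx those of Nr4a1 (4.17), Atf3 (4.07) and Btg2 (3.79), and against control, where 1 was higher and 2 lower, those of Atf3 (-1.35), Ier5 (1.34) and Zfp36 (-1.03). The part of this programme in the values of Ccnd1 and the other 9 genes was not tested.

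Of 10 myofibre genes, 5 were lower in mdx and 5 higher in the Sirt6mKO/mdx-labelled libraries against mdx, led by the myosin gene Myh2 in each (-2.71 and 2.43), with summed values of 7466 to 10349 in control, 1590 to 5195 in mdx and 5661 to 11853 in the third group. Fibro-adipogenic markers summed to 29550 to 36254, 42133 to 50970 and 28871 to 37649, with 3 of 12 higher in mdx, led by the collagen gene Col1a2 (4.25), 1 lower against mdx, Col1a1 (-1.08), and 1 higher against control, Col1a2 (3.17). MuSC markers summed to 33721 to 35352, 27665 to 33873 and 26504 to 30483, and of the 12 only Sdc4 was called (-2.69, 1.38 and -1.31). Macrophage and leukocyte markers summed to 107 to 134 for control, 99 to 131 for mdx and 206 to 207 for the third group, which lay above both others. Endothelial markers summed to 843 to 951, 441 to 458 and 654 to 668 in the same order, with no overlap between the groups. Erythroid markers summed to 23 to 71, 9 to 17 and 45 to 95, lowest in mdx, and Schwann cell markers to 55 to 59, 60 to 81 and 23 to 57. Up to 8 of 11, 1 of 10, 3 of 7 and 3 of 6 genes of these lists were at 0 in a library. In mdx against control these 4 lists held 1 higher (Lyz2) and 3 lower genes (Cd68, Kdr and Pecam1), against mdx 1 higher (Hbb-bs) and against control 1 higher (Lyz2). Ptprc, the gene of the leukocyte antigen CD45, was at 0 in both control libraries and read 3 to 19 in the others. The part of these cells in the values of the 10 genes was not tested.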

How the data were processed

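The 6 libraries were made from ribosome-depleted total RNA of sorted MuSCs. Per the labels and the study's methods, the authors aligned reads with STAR to GRCm38 (mm10), counted them per Ensembl gene with featureCounts 1.4.5-p1, leaving out reads on several genes or places, and normalized with DESeq2 1.6.0. The use of strand was not stated. The deposited values are a score, that is read counts divided by 1 size factor per library and rounded to whole numbers, so no count test was used. Steps between whole numbers gave size factors of 0.537 to 1.527 and thus the approximate reads. Intervals and floors from such reads cover counting error only.

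limma 3.58.1 in R 4.3.3 was fitted to log2(value + 1) of all 6 libraries with a mean-variance trend and without a block. The variance of each gene was pooled with that of genes of similar level (12.06 prior and 3 residual degrees of freedom). Fold changes on this scale understate those of low genes. A mean of 5 or more was required for testing, met by 15915 of 22706 genes. Thresholds were those of the study (adjusted p at most 0.05, 2-fold). The fit was tested on simulated data with 200 changed genes. Exon lengths, overlaps and positions came from GENCODE vM21, which held 98.5% of the gene identifiers, and promoters from RefSeq (GRCm38.p6).

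The 10 genes and the lists of other genes were chosen with earlier results of these data known. All 10 are reported in every comparison. From each list the called genes with the 3 largest log2 fold changes in size are named (of marker lists the leading ones, or all where few were called), and for each called gene of the 10 the 3 genes with the highest correlation. Oraov1, Tspan31, Ints8, Exosc9, Xist, Ddx3y, Pax7, Ptprc, Ccng1, Cdk9, Hspa1a and Hspa1b were named outside this rule, after their values were seen. The same holds for Cdkn1a and Trp53 in mdx against control. Alternatives were other pseudocounts, filters, scalings, variance models, the 2 groups alone, no minimum fold change, a replicate block and each library left out. Samples were grouped by their titles. A deviation check of same-numbered libraries gave correlations of -0.128, 0.119 and 0.009, so the numbers were not taken as pairs.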

Additional observations from a re-analysis of the deposited data

How the results depend on the processing

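The depth of 4397707 to 9744264 approximate reads and 2 libraries per group limit low genes most. The 6 calls of single genes were recomputed under up to 18 alternatives each. Of the 107 refits in all, 71 kept the call, 36 lost it at the same direction and 0 reversed it. The replicate block left 3, 1 and 2 of the 10 genes called (mdx against control, Sirt6mKO/mdx-labelled libraries against mdx, and against control) as without it, with 2415, 1510 and 1404 calls over all genes, and replicate numbers did not pair the libraries. Of the 6 calls, Cdk6 in mdx kept its call under all 18 alternatives. It was close to the threshold with a single prior variance (limma, adjusted p = 0.04925) and without mdx replicate 2. Ccne2 in mdx lost its call with a pseudocount of 0.1, without the filter, at a mean of at least 50, with upper quartile scaling, a single prior variance, voom weights and the 2 groups alone (adjusted p up to 0.131).

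In mdx against control the number called among the 10 genes was 1 without a filter on low values, 1 at a mean of at least 50 and 1 with a single prior variance. In the Sirt6mKO/mdx-labelled libraries against mdx it was 0 without the filter, 0 with a single prior variance, 2 with total counts (Ccnd1 and Cdk4) and 3 with voom weights (also Ccna2, -1.77, adjusted p = 0.0214). These last 2 settings both scale by total counts, with medians of all genes of -0.58 and -0.60. Against control the number called was 1 with a pseudocount of 0.1, 0 without the filter, 1 with total counts, 0 with a single prior variance, 1 with voom weights and 1 with only the 2 groups compared. With libraries left out the numbers were 1 to 2, 0 to 1 and 0 to 2. Calls over all genes, from 2265, 1300 and 1253, were 989, 168 and 221 without the filter and 541, 0 and 87 with a single prior variance, and in the last 2 comparisons 3411 and 3147 with total counts and 3579 and 3221 with voom weights. Leaving out libraries gave 939 to 2356, 203 to 1475 and 213 to 1314. Where 0 of the 10 genes were called, limma still gave 2 of them (without the filter, and with a single prior variance) an unadjusted p under 0.05, and with a single prior variance 3156 genes in all against mdx. A fit with a library left out assumes that the lone library varies like the other groups. The cause was not tested.

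Signs turned only for values that were not called. Ccnd2 was -0.0074 in mdx with upper quartile scaling, -0.51 (total counts) and -0.57 (voom) against mdx, and -0.46 and -0.42 against control. E2f1 was -0.52 and -0.52 against mdx and -0.030 and -0.050 against control, and Cdk2 -0.34 and -0.33 against control, for the same 2 settings. With libraries left out, the ranges that crossed 0 were, in mdx against control, -0.75 to 0.81 for Ccnd2, -0.35 to 0.30 for Ccnd3 and -0.37 to 0.088 for Ccne1. Against mdx they were -0.62 to 0.81 for Ccnd2, -0.27 to 0.0080 for Ccnd3, -0.33 to 0.080 for Cdk6, -0.87 to 0.029 for Ccne2 and -0.19 to 0.39 for E2f1. Against control they were -0.65 to 0.90 for Ccnd2, -0.48 to 0.16 for Ccnd3 and -0.42 to 0.22 for Cdk4.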
